A study of Mus musculus with 17 samples.

Results

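A set of 9 genes that ERK signalling is known to switch on was followed here in mouse embryonic stem cells: the ETS transcription factors Etv1, Etv4 and Etv5 and the immediate early genes Egr1, Egr2, Fos, Fosl1, Ier2 and Ier3. They were chosen by name from the deposited table of read counts, in which all 9 symbols were found among 20621 genes. All 9 were also among the 15365 genes abundant enough to be tested. Total RNA was sequenced from E14 cells, a mouse embryonic stem cell line, grown without feeder cells in 10% serum and 1000 U/mL LIF. The WT genotype was compared with RNAPII-mut, cells homozygous for a slowly elongating RNA polymerase II and called mutant here. Cells were taken without 2i (day 0) and after 1, 2 and 7 days in the same medium with 2i, that is 1 µM PD0325901, which inhibits MEK, and 3 µM CHIR99021, which inhibits GSK3. That gives 8 groups of genotype and day and 17 libraries, 3 in the mutant at day 1 and 2 in every other group. The labels do not say whether libraries of a group came from separate cultures, so p-values measure only the spread between these libraries. An effect of the mutation and one of the particular cells that bear it cannot be told apart, and read counts per gene cannot show the mutation itself.

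In embryonic stem cells, FGF4 made by the cells signals through FGF receptors, RAS and RAF to MEK, and MEK phosphorylates ERK. ERK activates transcription factors of the ETS family, some of which bind DNA together with serum response factor (SRF), and these switch on immediate early genes within minutes and without new protein synthesis. Etv1, Etv4 and Etv5 form the PEA3 subfamily of ETS factors, which act downstream of FGF in many tissues, and inhibiting MEK is one of the ways in which 2i holds cells in the naive state.

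Library totals lay between 47350441 and 56138844 counts, and levels are given as CPM, that is counts relative to library size after scaling by the trimmed mean of M-values (TMM). The 8 embryonic stem cell markers examined (among them Pou5f1, Sox2 and Nanog) had counts in every library, with a summed level of 4563 to 10283 CPM. The lowest sums were 4563 CPM in WT day 0 replicate 1, beside 6495 CPM in replicate 2, and 5040 CPM in WT day 1 replicate 1, beside 9191 CPM. Replicate 1 of the WT at days 0 and 1 stood apart from the others in several marker lists. The summed level of 10 mesoderm and stromal markers was 688 and 1075 CPM in these libraries, called stromal-marker libraries here as a name only, 162 CPM in WT day 2 replicate 1, and 11.8 to 41.4 CPM in the other 14 libraries. Of these markers, 1 to 3 were at 0 in 16 libraries and none in WT day 0 replicate 1. Trophoblast markers summed to 659, 1376 and 409 CPM in WT replicate 1 of days 0, 1 and 2 and to 72.9 to 235 CPM elsewhere, and neural markers to 139 and 100.5 CPM at days 0 and 1 and to 26.9 to 56.8 CPM elsewhere. WT replicate 2 instead had the most primitive endoderm markers on each day, 373 to 507 CPM beside 65.0 to 338 CPM in WT replicate 1 and 81.2 to 270.4 CPM in the mutant. In bulk RNA, fewer cells of a type and less RNA per cell cannot be told apart.

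Of the 9 genes, those that varied together most closely from library to library were Egr1, Egr2 and Fos, and the promoter sequence of the latter pair is shown because of that. RefSeq promoter windows (GRCm38.p6) were matched by symbol for 5 of the 9 genes, with 11 windows among them. Egr1 was left out of the matching, and none is shown for Etv4, Fosl1 or Ier2 either. Each line gives the 250 bases before an annotated transcription start, 5′ to 3′ on the plus strand, with matched motifs in capitals. The Egr2 window is chr10:67537619-67537868 and the Fos window is chr12:85473640-85473889.
Egr2 promoter: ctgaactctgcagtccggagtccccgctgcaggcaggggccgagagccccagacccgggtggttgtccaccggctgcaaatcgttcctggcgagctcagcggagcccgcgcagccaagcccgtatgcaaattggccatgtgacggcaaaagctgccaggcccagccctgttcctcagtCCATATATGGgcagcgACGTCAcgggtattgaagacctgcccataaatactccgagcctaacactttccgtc
Fos promoter: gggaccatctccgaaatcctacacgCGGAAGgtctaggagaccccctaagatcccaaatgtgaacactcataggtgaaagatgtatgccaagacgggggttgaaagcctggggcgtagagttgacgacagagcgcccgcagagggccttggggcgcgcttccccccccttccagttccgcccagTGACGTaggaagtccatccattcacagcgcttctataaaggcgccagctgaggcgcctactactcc

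The motifs searched on both strands were the CArG box, the core bound by SRF, CGGAAG, a core of ETS sites, and TGACGT, the core of sites for CREB and related factors. The Egr2 window held the CArG box CCATATATGG, 62 bases before the start, and ACGTCA, which is TGACGT on the other strand, 50 bases before it. The Fos window held CGGAAG 219 bases and TGACGT 60 bases before its start. The motifs did not overlap. RefSeq gives 5 such windows for Egr2. The one shown was chosen among the 3 overlapping windows that hold this pair of matches, because it overlaps no annotated UTR. Of the remaining windows, 1 holds another CArG box, CCTTTTTTGG, and 1, the most upstream, holds none of the motifs. Of 32851 promoter windows of the same length, 1.47% held a CArG box, 13.6% CGGAAG and 6.47% TGACGT. A match is a description of these letters and not evidence that a factor was bound. Bases farther upstream than these windows were not searched, so a motif absent from a window may lie outside it.

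The first comparison asked how the 9 genes changed under 2i, with the responses of both genotypes averaged and each later day set against day 0. Etv4 fell most, 19.7- to 36.3-fold, and Etv1 fell 3.90- to 9.62-fold, from the first day on. Fosl1 fell at days 2 and 7, and Ier2 fell slightly by day 7. Etv5, Egr1, Egr2, Fos and Ier3 did not pass the test on any day. A call required a two-sided adjusted p under 0.05 (Benjamini-Hochberg over all genes tested) in edgeR's quasi-likelihood test, fitted once to all 17 libraries. At day 1, 2 of the 9 were called, both lower, where 2.46% of all genes tested were called lower and 2.4% higher. At day 2, 3 were called lower, beside 5.13% of all genes called lower and 5.56% higher. At day 7, 4 were called lower, beside 13.7% of all genes called lower and 13.7% higher. None of the 9 was called higher on any of the 3 days. The median log2 fold change of the 9 was -0.15 at day 1, -0.37 at day 2 and -1.65 at day 7, beside 0.01 over all genes on each day. The comparisons with day 0 share the day 0 libraries. PD0325901 and CHIR99021 were always given together, and no library was taken without 2i at days 1, 2 or 7. Effects of either inhibitor and of time in culture therefore cannot be told apart.

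**Figure D1:**
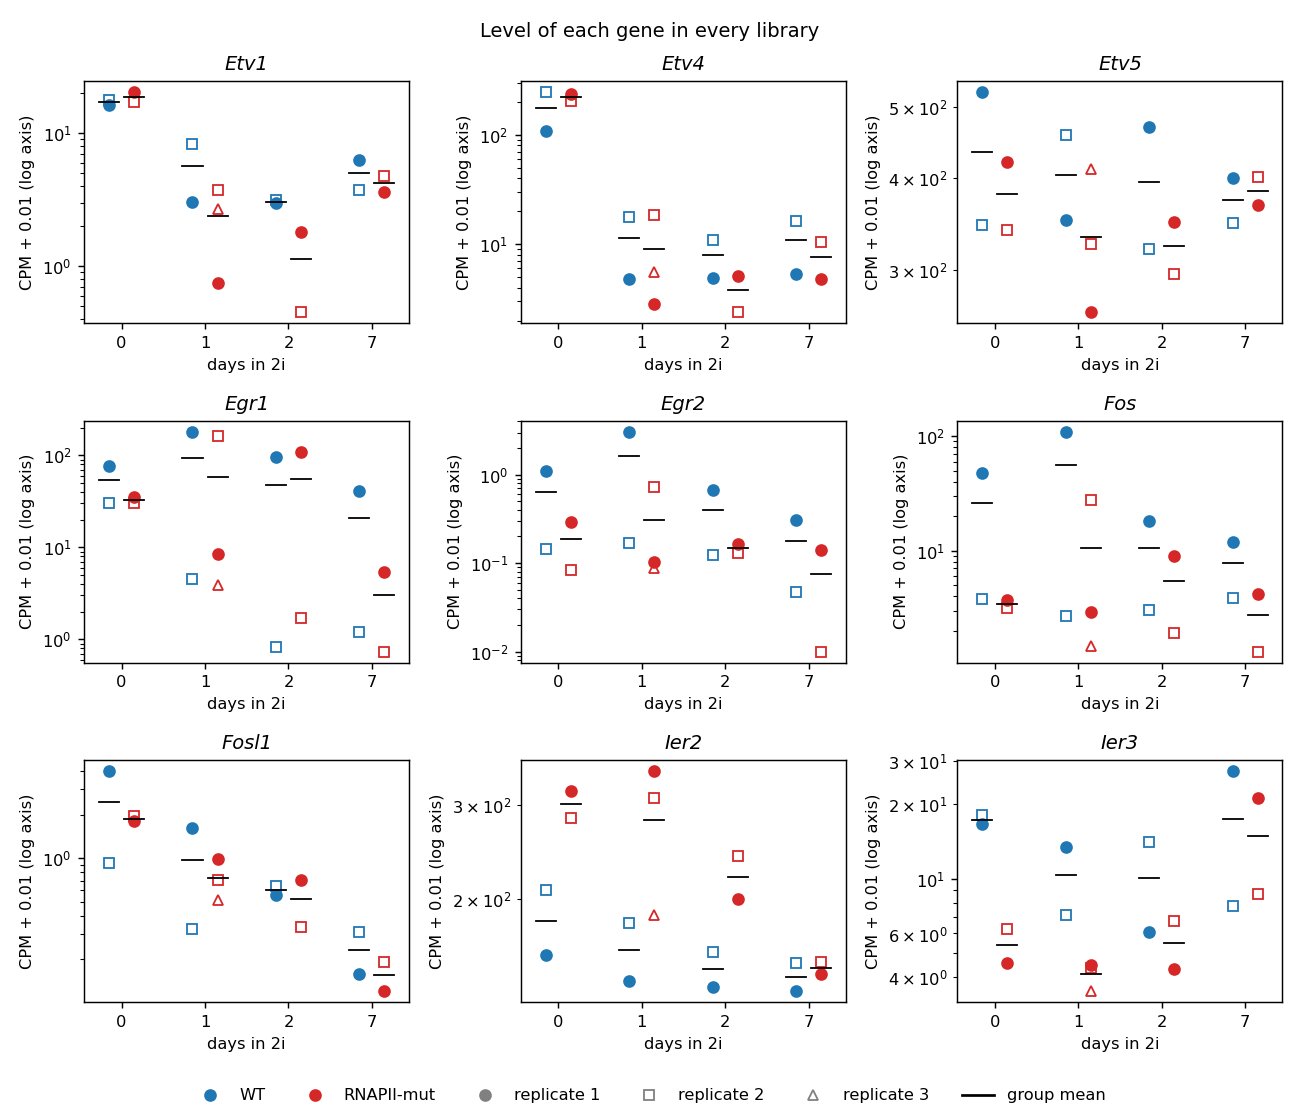
Level of each of the 9 genes in every library, in CPM + 0.01 on a log axis of its own per panel, against days in 2i (categories, not to scale). Blue is WT and red RNAPII-mut, the shape gives the replicate number and the bar is the group mean. Etv4 lay at 109 to 246 CPM in the 4 day 0 libraries and at 2.39 to 18.5 CPM in the 13 libraries under 2i, while Etv5 lay between 263 and 524 CPM throughout.

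Etv4, on chromosome 11 (101769742 to 101785371, GRCm38), stood at 109 and 246 CPM in the WT and at 237 and 204 CPM in the mutant at day 0. At day 1 it was at 4.81 and 17.8 CPM in the WT and at 2.82, 18.5 and 5.52 CPM in the mutant. It was at 4.93 and 10.9 against 5.13 and 2.39 CPM at day 2 and at 5.29 and 16.4 against 4.79 and 10.4 CPM at day 7. All 13 libraries under 2i lay below all 4 at day 0, and the lowest day 0 library was WT replicate 1, which carried the stromal markers. The average log2 fold change was -4.30 at day 1 (SE 0.65, 19.7-fold lower, edgeR adjusted p = 0.00246). It was -5.18 at day 2 (SE 0.71, 36.3-fold lower, edgeR adjusted p = 0.000727) and -4.45 at day 7 (SE 0.69, 21.9-fold lower, edgeR adjusted p = 0.000482). These 3 calls were kept under all 24 alternatives, which include leaving out each library in turn and leaving out both stromal-marker libraries. Leaving out 1 library at a time gave -4.91 (without WT day 1 replicate 2) to -3.94 for Etv4 at day 1. The range was -5.52 to -4.83 at day 2 and -4.97 to -4.10 at day 7.

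Etv1, on chromosome 12 (38779380 to 38870484), was at 16.2 and 17.8 CPM in the WT and at 20.3 and 17.1 CPM in the mutant at day 0. Under 2i it was at 3.03 and 8.28 CPM in the WT and at 0.739, 3.76 and 2.68 CPM in the mutant at day 1. At day 2 the WT libraries were at 2.97 and 3.13 CPM and the mutant ones at 1.80 and 0.445 CPM. At day 7 they were at 6.25 and 3.71 CPM and at 3.62 and 4.76 CPM. No library under 2i reached the day 0 levels, and the 4 libraries of day 7 all lay above the 4 of day 2. Averaged over the genotypes, the log2 fold change from day 0 was -2.28 at day 1 (SE 0.47, edgeR adjusted p = 0.0158), -3.27 at day 2 (SE 0.53, adjusted p = 0.00185) and -1.96 at day 7 (SE 0.50, adjusted p = 0.0105). The day 1 call was lost without mutant day 0 replicate 1 and without both stromal-marker libraries (adjusted p = 0.0652 and 0.0607), while the log2 fold change of Etv1 stayed at -2.21 and -2.03. The day 7 call was lost without mutant day 7 replicate 1 (adjusted p = 0.051), at a log2 fold change of -1.87. At day 2, leaving out 1 library at a time gave -3.93 (without mutant day 2 replicate 1) to -2.93 for Etv1.

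Etv5, on chromosome 16 (22381309 to 22439719), was the steadiest of the 3 ETS factors. It was at 524 and 345 CPM in the WT and at 421 and 339.9 CPM in the mutant at day 0. Under 2i the 6 WT libraries ranged from 320.3 to 469.6 CPM and the 7 mutant libraries from 263 to 411 CPM. Levels before and under 2i overlapped on every day. In the average of both genotypes, the log2 fold change was -0.15 at day 1 (SE 0.18, 95% interval -0.53 to 0.24), -0.19 at day 2 (-0.59 to 0.21) and -0.10 at day 7 (-0.50 to 0.30). The adjusted p lay between 0.585 and 0.728 in edgeR's test.

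Because Etv4 and Etv1 fell where Etv5 did not pass, their ratio to Etv5 is described library by library, which was chosen after the values were seen. The log2 ratio of Etv4 to Etv5 was -1.08 ± 0.80 (SD, n = 4) at day 0 and -5.73 ± 0.93 (SD, n = 13) under 2i, a difference of -4.65. The log2 ratio of Etv1 to Etv5 was -4.50 ± 0.35 and -7.03 ± 1.00, a difference of -2.53. In neither did the libraries overlap, with the lowest day 0 ratio at -2.27 against the highest 2i ratio at -4.13 for Etv4, and at -5.01 against -5.79 for Etv1. No test is given, since the separation that prompted the comparison fixes its outcome. Leaving out any 1 library left the differences at -4.45 to -5.04 for Etv4 and -2.34 to -2.71 for Etv1.

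Fosl1, on chromosome 19 (5447547 to 5455946), encodes FRA1, a partner of JUN in the AP-1 factor. It was a low gene, at 3.99 and 0.913 CPM in the WT and 1.81 and 1.93 CPM in the mutant at day 0. At day 1 it was at 1.62 and 0.314 CPM in the WT and 0.970, 0.702 and 0.505 CPM in the mutant. At day 2 the levels were 0.548 and 0.634 CPM and 0.703 and 0.324 CPM. At day 7 they were 0.148 and 0.300 CPM and 0.111 and 0.182 CPM, which is 6 to 16 counts a library. The WT libraries of days 0 and 1 that were high were those with the stromal markers, whose part in the level was not tested, and the day 1 levels overlapped those of day 0 while those of days 2 and 7 did not. Its average log2 fold change was -1.35 at day 1 (SE 0.53, edgeR adjusted p = 0.173), -1.95 at day 2 (SE 0.57, adjusted p = 0.0446) and -3.55 at day 7 (SE 0.62, 11.7-fold lower, adjusted p = 0.00116).

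The day 7 call of Fosl1 was kept under all 24 alternatives, but the log2 fold change was -2.84 without WT day 0 replicate 1. The day 2 call was kept under 11 of them: without WT day 0 replicate 1 the log2 fold change of Fosl1 was -1.24 (adjusted p = 0.209). The call was also lost without either WT day 2 library (adjusted p = 0.0971 and 0.114), without any 1 of the 9 mutant libraries (0.0555 to 0.172) and without both stromal-marker libraries (0.0887). From day 2 to day 7 the libraries of Fosl1 did not overlap either, with a log2 change of -1.59 (SE 0.60), but the adjusted p was 0.230. Exons of Fosl1 overlap those of Ccdc85b on the opposite strand. The counting is not stated to use strand, so how reads from the overlapping part were assigned is not known. Ccdc85b was at 12.6 to 39.6 CPM and was called in none of the comparisons given here, with an average log2 fold change of -0.38 at day 7 (adjusted p = 0.279).

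Egr1, a zinc finger factor and one of the most rapidly induced ERK targets, showed the widest differences between libraries of the same group. It was at 77.4 and 30.6 CPM in the WT and 35.6 and 30.0 CPM in the mutant at day 0. At day 1 it was at 182 and 4.51 CPM in the WT and 8.55, 162 and 3.92 CPM in the mutant. At day 2 it was at 95.1 and 0.821 CPM and at 109 and 1.70 CPM, and at day 7 at 40.9 and 1.20 CPM and at 5.32 and 0.727 CPM. Thus 5 of the 13 libraries under 2i, WT replicate 1 of days 1, 2 and 7, mutant day 1 replicate 2 and mutant day 2 replicate 1, lay above the day 0 library that was lowest, and the other 8 lay below it. The 2 libraries of WT day 2 differed 116-fold, and those of mutant day 0 1.19-fold. The average log2 fold change was 0.80 at day 1 (95% interval -2.45 to 4.06), 0.29 at day 2 (-3.06 to 3.65) and -2.40 at day 7 (-5.96 to 1.16, edgeR adjusted p = 0.311).

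Fos, on chromosome 12 (85473890 to 85477273), encodes the founding AP-1 subunit. It was at 48.1 and 3.76 CPM in the WT and 3.69 and 3.14 CPM in the mutant at day 0. At day 1 it was at 109.6 and 2.67 CPM in the WT and 2.91, 27.5 and 1.48 CPM in the mutant. At day 2 it was at 18.1 and 3.02 CPM and at 8.98 and 1.90 CPM, and at day 7 at 11.8 and 3.82 CPM and at 4.16 and 1.31 CPM. WT replicate 1 was the higher WT library on all 4 days, and in the mutant the library highest in Egr1 was also the highest in Fos on every day. Averaged over the genotypes, the log2 fold change was 1.38 at day 1 (-1.03 to 3.78), -0.31 at day 2 (-2.77 to 2.14) and -1.02 at day 7 (-3.51 to 1.46).

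Egr2, on chromosome 10 (67535475 to 67542188), a zinc finger factor related to Egr1, was near the limit of detection. It lay between 0.0375 and 3.06 CPM in 16 libraries. In mutant day 7 replicate 2 it was at 0 counts, which allows up to 0.0545 CPM for counting error alone if counts are independent. Between 71.5 and 76.4% of the nonzero counts of a library were even, so they may not be, and the limit may be higher. Its highest libraries were WT day 1 replicate 1 at 3.06 CPM (182 counts) and WT day 0 replicate 1 at 1.11 CPM, followed by mutant day 1 replicate 2 at 0.722 CPM and WT day 2 replicate 1 at 0.665 CPM. In the average of both genotypes, the log2 fold change was 1.06 at day 1 (-1.26 to 3.39), -0.51 at day 2 (-2.99 to 1.98) and -1.65 at day 7 (-4.27 to 0.97).

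**Figure D2:**
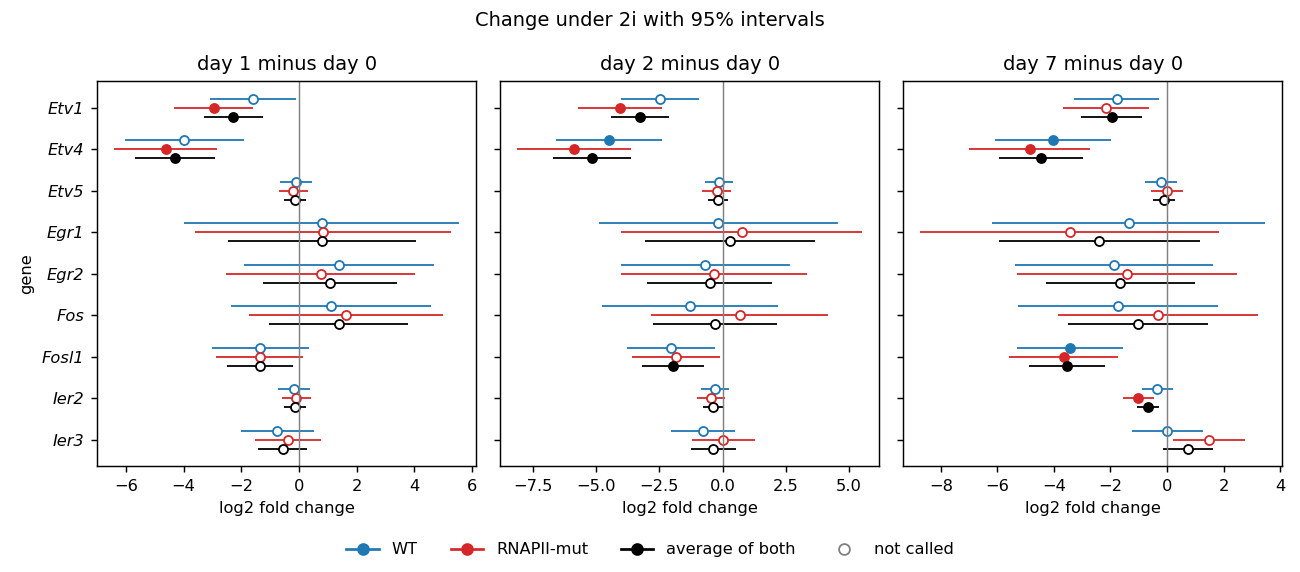
Log2 fold change of each gene from day 0, with its 95% interval, at 1, 2 and 7 days in 2i (each panel has its own horizontal axis). Blue is WT, red RNAPII-mut and black the average of both, and filled points are called at an adjusted p under 0.05. Etv4 was called in the average at -4.30, -5.18 and -4.45, and the intervals of Egr1, Egr2 and Fos spanned 0 on every day.

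The spread between libraries of a group was measured by the biological coefficient of variation (BCV), whose median over all genes tested was 0.273. It was 1.29 for Egr1, 1.02 for Egr2 and 0.986 for Fos, and 0.462%, 1.44% and 1.63% of genes had a higher one. Etv5 at 0.197 and Ier2 at 0.192 lay at the other end, with 74.0% and 75.9% of genes above them. Etv4, Fosl1, Etv1 and Ier3 lay between, at 0.569, 0.540, 0.476 and 0.409.

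Over the 13 libraries under 2i, the log2 levels of Egr1 and Fos correlated at r = 0.871 (Spearman's rho 0.830). For the pairs among Egr1, Egr2 and Fos, the permutation p of r, adjusted over all 36 pairs of the 9 genes, was at most 0.0012. That of rho was at most 0.0115. Egr1 and Egr2 correlated at r = 0.831 (rho 0.852) and Egr2 and Fos at r = 0.931 (rho 0.824). Without the 2 libraries farthest from the median of the first gene, r was 0.844, 0.772 and 0.811. Within the 6 WT libraries r was 0.890 for Egr1 and Fos, and within the 7 mutant libraries it was 0.932. These libraries share depth scaling and come from 3 days, and the pairs were examined after the spread had been seen. The permutations treated the 13 libraries as independent, but WT libraries of the same replicate number deviated together across genes (r = 0.236 to 0.744). WT replicate 1 of days 1, 2 and 7 were among the libraries high in Egr1. Mutant day 2 replicate 1, also high in Egr1, deviated together with these WT libraries at r = 0.359, 0.503 and 0.345. The p-values may therefore overstate the support. Etv1 and Etv4 correlated at r = 0.729 (adjusted permutation p 0.0279 for r and 0.075 for rho). Etv1 and Etv5 correlated at r = 0.721 (0.0364 and 0.404). Without the 2 libraries farthest from the median of Etv1, r was 0.469 and 0.414, so that these relations rest on those libraries.

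Etv4 did not rise with Egr1 over the 13 libraries under 2i (r = -0.144). Within the 6 WT libraries r was -0.869, and within the 7 mutant libraries it was 0.379. WT replicate 1 was the higher WT library in Egr1 and the lower in Etv4 at days 0, 1, 2 and 7. In WT day 1 replicate 1 and mutant day 2 replicate 1, Egr1 was at 182 and 109 CPM while Etv4 was at 4.81 and 5.13 CPM. The stromal markers were high in some of the libraries with high Egr1 and Fos and not in others. They summed to 1075 CPM in WT day 1 replicate 1 and 162 CPM in WT day 2 replicate 1, where Fosb, another AP-1 subunit, was at 57.1 and 8.80 CPM. In WT day 7 replicate 1, with Egr1 at 40.9 and Fos at 11.8 CPM, they summed to 41.4 CPM, beside 18.1 CPM in replicate 2, and Fosb was at 0.740 and 0.787 CPM. In the mutant the sum was 30.6 CPM in day 1 replicate 2, beside 24.2 and 25.2 CPM in the other libraries of that group, and 22.6 and 21.9 CPM in day 2 replicates 1 and 2. Acta2 (smooth muscle actin), only 1 of the 10 summed markers, was at 1.53 CPM in the high-Egr1 library beside 0.323 and 0.350 CPM at day 1. At day 2 it was at 1.95 beside 0.445 CPM. The whole sum was also higher in that library at day 1, but the markers other than Acta2 together were not at day 2. Fosb was at 1.44 beside 0.416 and 0.194 CPM at day 1 and at 0.273 beside 0.283 CPM at day 2. The part of the cells that carry these markers in the levels of Egr1 and Fos was not tested.

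**Figure D3:**
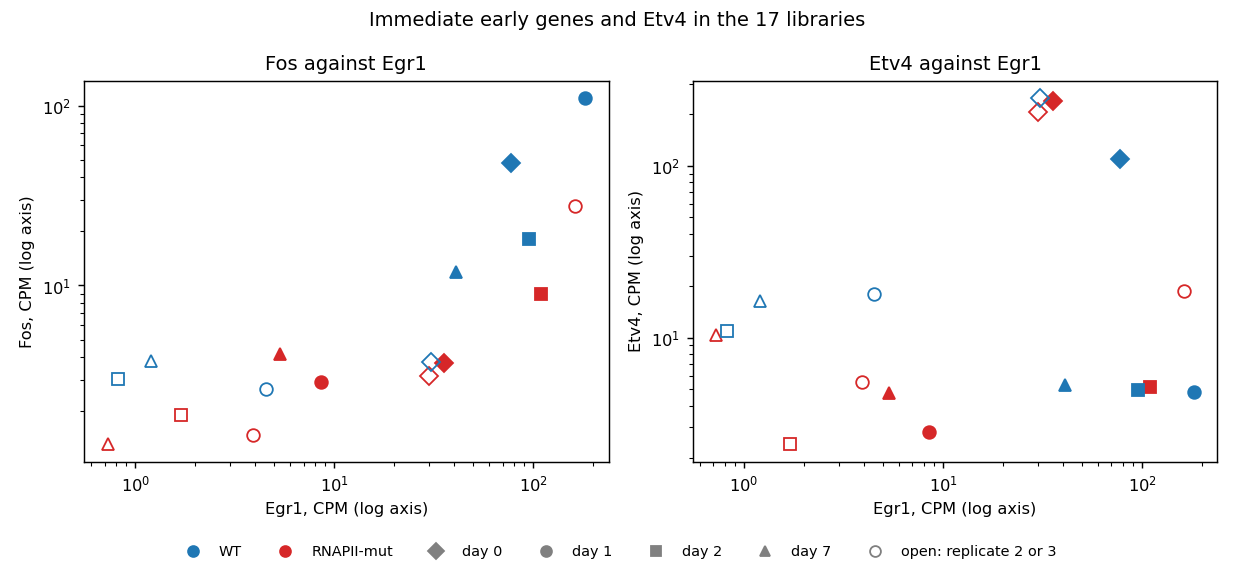
Fos (left) and Etv4 (right) against Egr1 in the 17 libraries, in CPM on log axes. Color gives the genotype, shape the day, and open symbols are replicates 2 and 3. Fos rises with Egr1 among the libraries under 2i (r = 0.871). Etv4 stays at 2.39 to 18.5 CPM in them (r = -0.144, with -0.869 within the WT and 0.379 within the mutant) and at 109 to 246 CPM at day 0.

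Long genes also differed between libraries. The log2 level of each gene was set against its own mean over the 17 libraries. The median of these deviations was higher for genes of at least 100 kb than for other genes by 0.27, 0.29 and 0.25 in WT replicate 1 of days 0, 1 and 2. In the other libraries this shift lay between -0.37 and 0.11. Over the 17 libraries this shift correlated with Etv5 at r = 0.64, Fos at 0.62, Egr2 at 0.55, Egr1 at 0.51 and Ier2 at -0.66, and its part in these levels was not tested. All 9 genes are themselves shorter than 100 kb, from 1240 bases for Ier3 to 91105 bases for Etv1.

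Ier2, on chromosome 8 (84661331 to 84662852), encodes a nuclear protein induced by growth factors. It was at 157 and 208 CPM in the WT and at 318 and 283 CPM in the mutant at day 0. At day 1 it was at 141 and 181 CPM in the WT and at 347, 309 and 187 CPM in the mutant, and at day 2 at 138 and 159.6 CPM and at 199.9 and 241 CPM. At day 7 the WT was at 135 and 152 CPM and the mutant at 145 and 153 CPM, all below the day 0 levels. Its average log2 fold change was -0.14 at day 1 (adjusted p = 0.703), -0.37 at day 2 (0.214) and -0.68 at day 7 (SE 0.18, 1.60-fold lower, edgeR adjusted p = 0.0137). The day 7 call was lost without WT day 0 replicate 2 (0.0506), WT day 7 replicate 1 (0.051), mutant day 0 replicate 1 (0.0519) or mutant day 7 replicate 1 (0.0514), at log2 fold changes of -0.57 to -0.66.

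Ier3, on chromosome 17 (35821684 to 35822923), encodes a protein linked to cell survival under growth factors and stress. It was at 16.6 and 18.0 CPM in the WT and at 4.54 and 6.22 CPM in the mutant at day 0. At day 1 it was at 13.5 and 7.14 CPM and at 4.48, 4.33 and 3.50 CPM, and at day 2 at 6.06 and 14.1 CPM and at 4.29 and 6.71 CPM. At day 7 it was at 27.3 and 7.72 CPM and at 21.2 and 8.68 CPM. Replicate 1 of both genotypes was the high library at day 7, and the groups of days 0 and 7 overlapped. The average log2 fold change was -0.57 at day 1 (95% interval -1.42 to 0.28), -0.37 at day 2 (-1.26 to 0.51) and 0.74 at day 7 (-0.14 to 1.63, adjusted p = 0.203). From day 2 to day 7 it was 1.12 (SE 0.41, adjusted p = 0.223).

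Between successive days under 2i none of the 9 was called. From day 1 to day 2, 0.0651% of all genes were called. An unadjusted p under 0.05 was found for 0 of the 9, beside 1650 of the 15365 genes tested. From day 2 to day 7, 1.2% of all genes were called. Etv1 (log2 change 1.30, SE 0.49, adjusted p = 0.236), Fosl1 and Ier3 had an unadjusted p under 0.05, beside 2219 of all genes tested. Over all 9 genes the adjusted p was 0.483 to 0.962 in the first step and 0.223 to 0.908 in the other. DESeq2 called 0 in both steps. The levels of Etv4 at days 1, 2 and 7 were thus not told apart by the test.

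Each genotype was then taken on its own. In the WT, 0 of the 9 were called at day 1 (0.202% of all genes). DESeq2 called 1, and its count over all genes is not given here for any comparison. An unadjusted p under 0.05 was found for 2 of the 9, beside 1293 of the 15365 genes tested. At day 2, 1 was called (2.16% of all genes) and at day 7, 2 (12.7%). In the mutant, 2 were called at day 1 (1.41% of all genes), 2 at day 2 (2.92%) and 3 at day 7 (14.2%). All 10 calls were lower. In the WT, Etv4 was 22.5-fold lower at day 2 (adjusted p = 0.0342) and 16.4-fold lower at day 7 (0.0164), with a log2 fold change of -3.97 at day 1 that did not pass (0.127). In the mutant it was 24.6-, 58.6- and 29.1-fold lower at days 1, 2 and 7 (adjusted p = 0.0181, 0.0117 and 0.00614). Etv1 fell in the mutant at day 1 (log2 fold change -2.96, adjusted p = 0.0402) and day 2 (-4.06, 0.0156), and stood at -2.16 at day 7 (0.0597). In the WT, Etv1 gave -1.59, -2.48 and -1.77 (adjusted p = 0.553, 0.090 and 0.111). DESeq2 called Etv4 in the WT at day 1 (adjusted p = 0.00396), and Etv1 in the WT at days 2 and 7 (0.0057 and 0.0383) and in the mutant at day 7 (0.0089). Fosl1 fell at day 7 in both genotypes, with log2 fold changes of -3.44 in the WT (0.0223) and -3.65 in the mutant (0.0163).

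Leaving out 1 library ended each of these calls in at least 1 case, mostly with a fall of like size. The WT falls of Etv4 were -3.78 at day 2 and -3.33 at day 7 without WT day 0 replicate 2 (adjusted p = 0.107 and 0.0555). At day 2 the call was also lost without WT day 2 replicate 1 (0.118) or replicate 2 (-5.17, 0.163), and, with the value unchanged, without either mutant library of day 0 (0.0526 and 0.0544) or of day 7 (0.0531 and 0.0529). At day 7 Etv4 was at -3.44 without WT day 7 replicate 1 (0.109), and at -5.07 and still called without replicate 2. The mutant calls of Etv4 were lost without day 0 replicate 1 (0.129 at day 1, 0.0726 at day 2) or replicate 2 (0.0927, day 1), without day 1 replicate 1 (0.0707) or 3 (0.0907), without day 2 replicate 1 (-6.53, 0.0788) or 2 (0.131) and without day 7 replicate 1 (0.0812). In the fits that lost a call, mutant Etv4 lay between -4.20 and -6.53. Without day 1 replicate 2 and without day 7 replicate 2 it was -5.72 and -5.52, and still called.

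Etv1 in the mutant lost its day 1 call without any of the mutant libraries of days 0, 1 and 7 (0.0583 to 0.272), at log2 fold changes of -2.54 to -3.44. Its day 2 call was lost without day 0 replicate 1 (0.113) or 2 (0.0568) or day 2 replicate 2 (-3.38, 0.136), and without day 2 replicate 1 Etv1 was at -5.39 and called. The WT fall of Fosl1 at day 7 rested on WT day 0 replicate 1, without which it was -2.02 (0.204). It was the same without both stromal-marker libraries (0.0893), and the other WT library of day 0 left out gave -4.14, still called. Leaving out either WT library of day 7 also ended the call (0.131, and -4.02 with 0.0742). The mutant call of Fosl1 was lost without either mutant library of day 0 (0.0665 and 0.0544) or day 7 (0.142 and 0.0886), at -3.35 to -4.05.

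The responses of the genotypes were compared by the difference of their log2 fold changes. None of the 9 genes was called at day 1, 2 or 7, with 0 at an unadjusted p under 0.05 and 0 called by DESeq2, and edgeR called 0% of all genes in each. Over all 15365 genes tested, 118, 366 and 1178 had an unadjusted p under 0.05 at days 1, 2 and 7. At day 7, Ier2 fell in the mutant (log2 fold change -1.01, adjusted p = 0.0195), where it was not called in the WT (-0.35, 0.385). The difference between them was -0.67 (95% interval -1.44 to 0.11, adjusted p = 0.659), so a different response was not shown. The mutant call was lost without either mutant library of day 0 (0.133 and 0.0577) or day 7 (0.132 and 0.101), at -0.89 to -1.10. For Ier3 the log2 fold change was 1.47 in the mutant (0.117) and 0.01 in the WT, a difference of 1.46 (-0.32 to 3.23, adjusted p = 0.667). For the other 7 genes the adjusted p of the difference at day 7 was 0.814 to 0.956.

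The mutant was compared with the WT on each day, which asks whether the slow polymerase goes with other levels of these genes. None of the 9 was called on any day in edgeR's test, beside 0.28%, 0.417%, 0.0716% and 0.0976% of all genes at days 0, 1, 2 and 7. The number with an unadjusted p under 0.05 was 2, 2, 1 and 0, beside 2028, 2216, 928 and 1465 of the 15365 genes tested. DESeq2 called 0, 1, 0 and 0 of the 9, and its count over all genes is not given here. The values among the 9 came from Ier2 and Ier3, in opposite directions. Ier2 was higher in every mutant library than in every WT library at days 0, 1 and 2, by 0.72 (SE 0.26, adjusted p = 0.239), 0.81 (0.24, 0.145) and 0.57 (0.25, 0.813) on the log2 scale. At day 7 the libraries overlapped and the difference was 0.05 (95% interval -0.49 to 0.60). Ier3 was lower in every mutant library at days 0 and 1, by a log2 difference of -1.69 (SE 0.59, adjusted p = 0.237) and -1.33 (0.52, 0.266), and stood at -0.87 (-2.14 to 0.39) at day 2 and -0.23 (-1.47 to 1.02) at day 7. Such separation was common with 2 libraries a group: 47% of all genes had libraries that did not overlap between the genotypes at day 0, 26% at day 1 and 30.1% at day 2. The call of Ier2 by DESeq2 at day 1 had an adjusted p of 0.0395. For the other 7 genes the edgeR adjusted p lay between 0.387 and 0.999 over the 4 days. Of these, Fos at day 0 (48.1 and 3.76 CPM in the WT, 3.69 and 3.14 CPM in the mutant, adjusted p = 0.507) and Etv1 at day 2 (2.97 and 3.13 CPM, 1.80 and 0.445 CPM, adjusted p = 0.865) were lower in every mutant library than in every WT library.

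**Figure D4:**
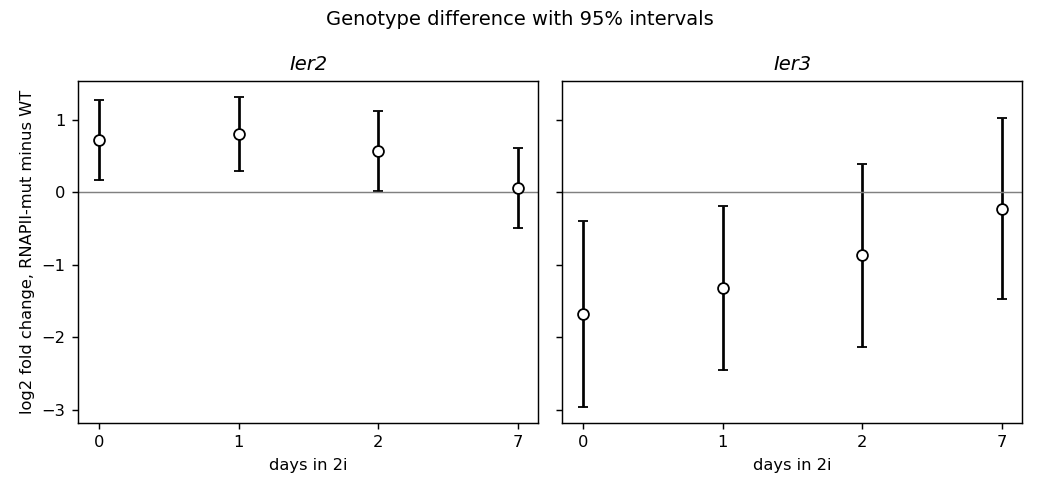
Log2 difference between mutant and WT (RNAPII-mut minus WT) for Ier2 and Ier3 on each day, as a point with its 95% interval. Open points were not called. Ier2 lay at 0.72, 0.81 and 0.57 on days 0, 1 and 2 and at 0.05 on day 7, and Ier3 went from -1.69 to -0.23.

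Related genes of the pathway were counted in the same way, beside the shares of all genes given above (2.46, 5.13 and 13.7% called lower and 2.4, 5.56 and 13.7% called higher at days 1, 2 and 7). Of 9 feedback inhibitors of the pathway (Sprouty and Spred proteins and the ERK phosphatases Dusp4, Dusp5 and Dusp6), 7, 8 and 7 were called lower in the average response at days 1, 2 and 7 and 0 higher, with a median log2 fold change of -1.37, -1.62 and -1.80. Spry4 gave -5.93, -7.48 and -7.59, Dusp4 -3.09, -3.88 and -5.94, and Dusp6 -2.90, -3.55 and -4.19. Of 18 components of the cascade from Fgf4 to ERK, 0 were called at day 1. At day 2, 2 were called higher, the scaffold Ksr1 (1.12) and the ligand Fgf4 (0.89), and at day 7, 3 higher and 2 lower, among them the receptor Fgfr2 (-3.77). At 5 of 18, the share called at day 7 is near that of all genes. None of 6 tested genes for SRF and its ternary complex and myocardin-related partners was called on any of these days.

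Of 20 other ETS family genes tested, 2, 4 and 7 were called higher and 0, 0 and 2 lower at days 1, 2 and 7. Spic rose by 3.11, 3.33 and 4.30 and Elf3 by 1.28, 2.13 and 2.69, while Spib (-2.89) and Ets1 (-2.65) fell at day 7. Of 24 other immediate early genes tested, 1 was called higher (Ier5l, 0.96) and 3 lower at day 1, 3 lower at day 2 and 7 lower at day 7. Myc, a growth regulator, gave -1.63, -2.93 and -3.04, and Phlda1 -1.67, -2.45 and -2.78. Id1, a target of BMP signalling as well as an immediate early gene, gave -2.02 at day 2 and -3.88 at day 7, and Junb, an AP-1 subunit, -1.66 at day 7. Between the genotypes none of these lists had a called gene on any day.

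For each of the 9 genes the 3 most alike among 10065 genes of at least 5 CPM on average were found by Pearson's r of log2 levels over the 17 libraries, as a description. Etv4 was most like Mkrn1 (0.948), Spry4 (0.946) and Utf1 (0.943), and Etv1 like Rbpj (0.894), Dip2b (0.882) and Spry2 (0.880). Etv5 had no neighbour above 0.797 (Lmnb1, then Eif4ebp2 and Rnf44). Fos was most like Mdm2 (0.913), Fosb (0.883) and the smooth muscle actin gene Acta2 (0.877). Egr2 was most like Cul4b (0.882), Mdm2 and Ctr9, and Egr1 like Hmmr (0.865), Pus10 and Pnpt1. Fosl1 was most like Gpsm1 (0.962), Jag2 and Rasd2, Ier2 like Ecsit (0.943), Nfkbid and Ptgis, and Ier3 like Rnf19a (0.905), Elk3 and Maff.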

How the data were processed

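RNA-seq read counts per gene in 17 libraries were analysed from a single table of raw counts deposited by the authors. Per the submitters' processing notes, STAR and deepTools were used with genome build mm10; versions, the counting tool, the annotation and the strand setting are not given in the sources used here. Between 71.5 and 76.4% of the nonzero counts of a library were even numbers, and the counts were used as deposited. Groups came from the sample titles.

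Differential expression was tested with edgeR 4.0.16 (R 4.3.3): filterByExpr on the 8 groups, TMM, 1 quasi-likelihood fit of all libraries with a coefficient per group (9 residual degrees of freedom, prior 3.96), and 18 contrasts, each adjusted by Benjamini-Hochberg over 15365 genes. Standard errors and 95% intervals come from that fit, and log2 levels for correlations used a prior count of 2. With library totals as above, counting error bears mainly on the lowest genes, and the limit given for a count of 0 covers that error only, because without molecular identifiers a read is not a molecule. Positions are from GENCODE (GRCm38, the same assembly as mm10).

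By rule, the text covers all 9 genes in every comparison, one by one or by count and range, with 5 lists of related genes, up to 4 called members of each by size, and the 3 most alike genes. The members and lists were chosen with earlier results of these data known. Alternatives were DESeq2 1.42.0, relative log expression (RLE) normalisation, no filter, a filter of 1 CPM in at least 4 libraries, replicate number as a block (in all libraries, or in the WT only), and leaving out each library. Leaving out both stromal-marker libraries, the ratios to Etv5 and the pair correlations were added after seeing the data.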

Additional observations from a re-analysis of the deposited data

How the results depend on the processing

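Of 1485 log2 fold changes recomputed for 62 results under up to 24 alternatives, 1371 kept their direction and side of the threshold, 60 lost and 19 gained a call, and 35 changed sign, none of them a called value. These totals include genotype differences of Ier2 and Ier3 with the block in the WT only, which set the mutant against the level of WT replicate 1. Under the alternatives, calls were counted among the 9 genes only, and no count over all genes is given here to set beside them. The number of the 9 genes called in the WT response was 1 at day 1 and 2 at day 2 with DESeq2 (0 and 1 in edgeR's test), 1 and 2 with a replicate block in the WT only, and 1 at day 7 without both stromal-marker libraries. With a replicate block in all libraries it was 1 in the WT at day 1 and 1 in the mutant at day 1. Without both stromal-marker libraries 1 was called in the average at day 1. Between genotypes at day 1, DESeq2 called 1 and the replicate block 1. The block in the WT only called 2 at day 1 and 1 at day 0, but there the mutant is set against the level of WT replicate 1. Leaving out 1 library at a time gave 0 to 1 (WT day 2), 0 to 2 (WT day 7), 0 to 2 (mutant day 1 and day 2), 0 to 4 (mutant day 7), 1 to 3 (average day 1), 2 to 3 (average day 2) and 2 to 4 (average day 7).

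The labels give the replicate numbers no shared source. Across genes, WT libraries with the same number deviated from their groups together (r = 0.236 to 0.744), whereas in mutant libraries r was -0.342 to 0.174 and between genotypes -0.348 to 0.503. With the replicate block, Etv4 in the WT at day 1 had an adjusted p of 0.0469, Ier2 between genotypes at day 1 0.0401, and Etv1 in the mutant at day 1 0.0957. With the block in the WT only, it was 0.0116 for Etv4 in the WT at day 1, 0.0339 for Etv1 in the WT at day 2 and 0.0283 for Etv1 in the mutant at day 7. In that fit the WT side of a genotype difference is the level of replicate 1, so it does not check the genotype differences given above. Against that level, the edgeR adjusted p was 0.0375 and 0.017 for Ier2 at days 0 and 1, and 0.0492 for Egr2 at day 1 (log2 difference -3.01).

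Values of no called gene that changed sign were as follows, and the cause was not tested. Without both stromal-marker libraries the average log2 fold change of Etv5 was 0.11 at day 1 and 0.064 at day 7, of Egr1 -0.97 at day 1, of Egr2 0.58 at day 2, and of Fos 1.08 at day 2 and 0.37 at day 7. With the replicate block Egr1 was at -1.64 at day 2, and with the block in the WT only at -0.35 at day 1 and -1.03 at day 2. Ier3 in the WT at day 7 was at -0.016 with DESeq2 and with RLE normalisation, -0.015 with the stricter filter, -0.046 with the replicate block, -0.093 with the block in the WT only, and -0.044 without both stromal-marker libraries. Leaving out 1 library at a time gave -0.28 to 0.018 for Etv5 at day 1 and -0.24 to 0.065 at day 7, -1.38 to 1.29 for Egr1 at day 1 and -2.64 to 0.79 at day 2, -0.61 to 2.15 for Egr2 at day 1 and -1.39 to 0.58 at day 2, and for Fos -0.82 to 2.77, -1.21 to 1.08 and -1.55 to 0.37 at days 1, 2 and 7. It gave -2.95 to 0.084 for Fosl1 in the WT at day 1, -1.16 to 0.66 for Ier3 in the WT at day 7, and -0.027 to 0.14 for Ier2 and -1.01 to 0.95 for Ier3 between genotypes at day 7. Where a group kept 1 library, it was assumed to vary like the others.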
